A study of Mus musculus with 36 samples.

Results

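Of 41 mouse genes of amino acid supply and the ATF4 response, 40 had a probe set that named them on the array, among 12393 genes in all. The genes were taken by symbol, from a list chosen with earlier results of these data known. They fall into 5 roles: 4 transcription factors, 7 stress response genes, 11 genes of amino acid and folate synthesis, 8 amino acid transporters and 11 cytosolic aminoacyl-tRNA synthetases. Pycr1, a gene of proline synthesis, had no probe set in the annotation used here. The 7436 genes with the higher mean signals were tested, 38 of the members among them. The cystine transporter Slc7a11 (mean signal 42.0) and the cationic amino acid transporter Slc7a1 (73.4) lay below the limit of about 123 and were not tested.

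RNA came from mouse embryonic fibroblasts, connective tissue cells grown out of 13.5-day-old embryos, either wild type or PKBa-/-, which lack Akt1, the gene of the kinase PKB alpha. Parents were heterozygous for the PKBa deletion, and per the protocol both kinds of cell were cultured in DMEM with 10% foetal calf serum and used at passages 15 to 20. The 36 Affymetrix arrays were labelled with the times 0, 2, 6, 24 and 48, without a unit, and each genotype had 4 arrays at every time except time 2, which had 2. The series is titled as DMEM treatment, whereas its protocol also describes an adipocyte induction medium, and which of them was used for these arrays is not labelled. Nothing states that the replicates were separate cultures or came from different embryos. The p-values measure the spread between averages of array pairs, formed as described below, and this spread may be technical.

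Array medians ran from 134 to 145. Within a group the arrays of replicates 1 and 2, and likewise 3 and 4, had correlations of 0.982 to 0.997 over genes, against 0.942 to 0.989 with the other pair, so the average of each pair was treated as 1 replicate and time 2 had 1 such average per genotype. Akt1 gave 1117 ± 183 (SD, n = 18) on the wild type arrays. The PKBa-/- arrays, without overlap, gave 74.3 ± 14.2 (SD, n = 18). All 10 fibroblast markers passed the signal limit, and their summed signal was 43280 to 60770 in wild type and 62000 to 71660 in PKBa-/-. The summed adipocyte markers, mostly Lpl, ran from 2644 to 5899 and from 1158 to 2254, with the defining marker Adipoq at about 20.3 and 19.2. Of 24 endothelial, blood, muscle and epithelial markers, Kdr (924 and 235), Cd14 (262 and 77.6) and Des (259 and 163) were tested and were lower in PKBa-/- on average over the times.

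ATF4 is a transcription factor whose mRNA is translated more when kinases that sense missing amino acids, misfolded proteins or other stresses phosphorylate the initiation factor eIF2. It then raises the transcription of genes that import amino acids, make them, charge them onto tRNAs and restrain further stress signalling. Because ATF4 is largely set by translation, its mRNA level is no measure of its protein. In fibroblasts growth factor signals through PKB and mTOR also act on this programme.

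Many ATF4 targets carry a composite element at which ATF4 pairs with a C/EBP protein. The letters TGATGNAA were searched on both strands in RefSeq promoters (GRCm38.p6) from 250 bases before to 50 after the start site. Promoters were held for 34 of the 40 members, all but Cars, Lars, Nars, Slc7a3, Slc7a5 and Wars. A match stood in 12 of the 34 (35.3%), against 4.51% of the 27025 genes with a promoter. These were Chac1, Nupr1, Trib3, Asns, Pck2, Slc7a11, Slc1a4, Aars, Gars, Iars, Tars and Yars. A match describes letters, not a bound site. The 200 bases before the start site are shown for 5 members with a match whose signals changed over time, 2 stress response genes, 1 synthesis gene and 2 synthetases, on the strand of the gene, with the match in capitals (TGATGNAA, or TTNCATCA where it lies on the other strand). They are Chac1 (chr2:119351042-119351241, plus strand), Nupr1 (chr7:126625471-126625670, minus strand), Asns (chr6:7693210-7693409, minus strand), Aars (chr8:111033642-111033841, plus strand) and Tars (chr15:11399659-11399858, minus strand).
Chac1: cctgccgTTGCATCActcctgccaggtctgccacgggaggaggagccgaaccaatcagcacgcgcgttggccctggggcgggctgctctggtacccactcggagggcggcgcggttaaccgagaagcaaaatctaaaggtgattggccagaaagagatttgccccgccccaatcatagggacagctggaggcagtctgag
Nupr1: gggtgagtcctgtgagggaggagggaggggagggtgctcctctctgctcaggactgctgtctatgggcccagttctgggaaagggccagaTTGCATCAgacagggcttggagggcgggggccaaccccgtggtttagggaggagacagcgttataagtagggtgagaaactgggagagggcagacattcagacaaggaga
Asns: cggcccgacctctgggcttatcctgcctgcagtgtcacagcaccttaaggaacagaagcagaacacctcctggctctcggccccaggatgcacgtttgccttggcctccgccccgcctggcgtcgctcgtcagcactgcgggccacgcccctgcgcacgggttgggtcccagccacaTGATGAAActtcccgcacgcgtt
Aars: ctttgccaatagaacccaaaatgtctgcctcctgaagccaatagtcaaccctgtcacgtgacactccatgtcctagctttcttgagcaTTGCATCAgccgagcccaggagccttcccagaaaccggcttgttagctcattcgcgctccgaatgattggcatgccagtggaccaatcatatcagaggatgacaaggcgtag
Tars: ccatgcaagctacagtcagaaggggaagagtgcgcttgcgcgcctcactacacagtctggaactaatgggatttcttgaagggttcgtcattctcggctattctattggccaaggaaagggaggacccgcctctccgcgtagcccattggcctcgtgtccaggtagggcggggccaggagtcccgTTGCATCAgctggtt
The first bases of the matches shown lie 193, 110, 23, 112 and 15 bases before the start site, in that order. Aars has another match, TTTCATCA, whose first base lies 9 bases after the start site and so outside the stretch shown. Members with and without a match were both lower in wild type. At time 48, 9 of 11 tested members with a match and 14 of 21 without one were lower than at time 0 (3.9% of all genes). Their median log2 changes were -0.93 and -0.79.

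The first question was how the genes changed after time 0 in wild type fibroblasts. Most fell late. At time 24, 25 of 38 members were lower and 1 higher (limma, adjusted p under 0.05), where 5.68% of all genes passed, 3.46% lower. At time 48, 27 were lower and 1 higher, where 6.05% of all genes passed, 3.90% lower. The median change of the members was -0.85 and -0.87 on the log2(signal + 32) scale, against 0.013 and -0.018 over all genes tested. Changes and differences of single genes are given on this scale with their SE as fitted by limma (value ± SE), and time 0 is the reference of each change. In 33 and 35 of the 38 members the 4 later arrays lay below the 4 arrays of time 0 without overlap, which held for 14.8% and 15.2% of all genes. Earlier the shares were smaller: 8 members were lower and 1 higher at time 6 (12% of all genes passed, 7.72% lower and 4.24% higher), and 4 were lower at time 2 (2.73% passed, 1.43% lower and 1.3% higher).

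Fewer members passed in PKBa-/- fibroblasts. However, no member differed between the genotypes in its change at an adjusted p under 0.05 in the main fit. That fit used pair averages without a term for the replicate set, and the count depended on how the replicates entered the fit. At time 24, 14 were lower and 1 higher (6.15% of all genes passed, 3.35% lower and 2.8% higher), with a median change of -0.56. At time 48, 10 were lower (7.42% of all genes passed, 4.36% lower and 3.07% higher), with a median of -0.46. The arrays of 25 and 27 members lay wholly below those of time 0, against 13.9% and 16.8% of all genes. All 10 members that were lower at time 48 were also lower in wild type, as were 13 of the 14 at time 24, the exception being Ppp1r15a. At time 6, 7 members were lower (18.4% of all genes passed, 9.78% lower and 8.62% higher), all of them lower in wild type too, and at time 2 there were 3 (3.40% passed, 1.24% lower). The heat map of changes shows which members fell early and which late.

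**Figure D1:**
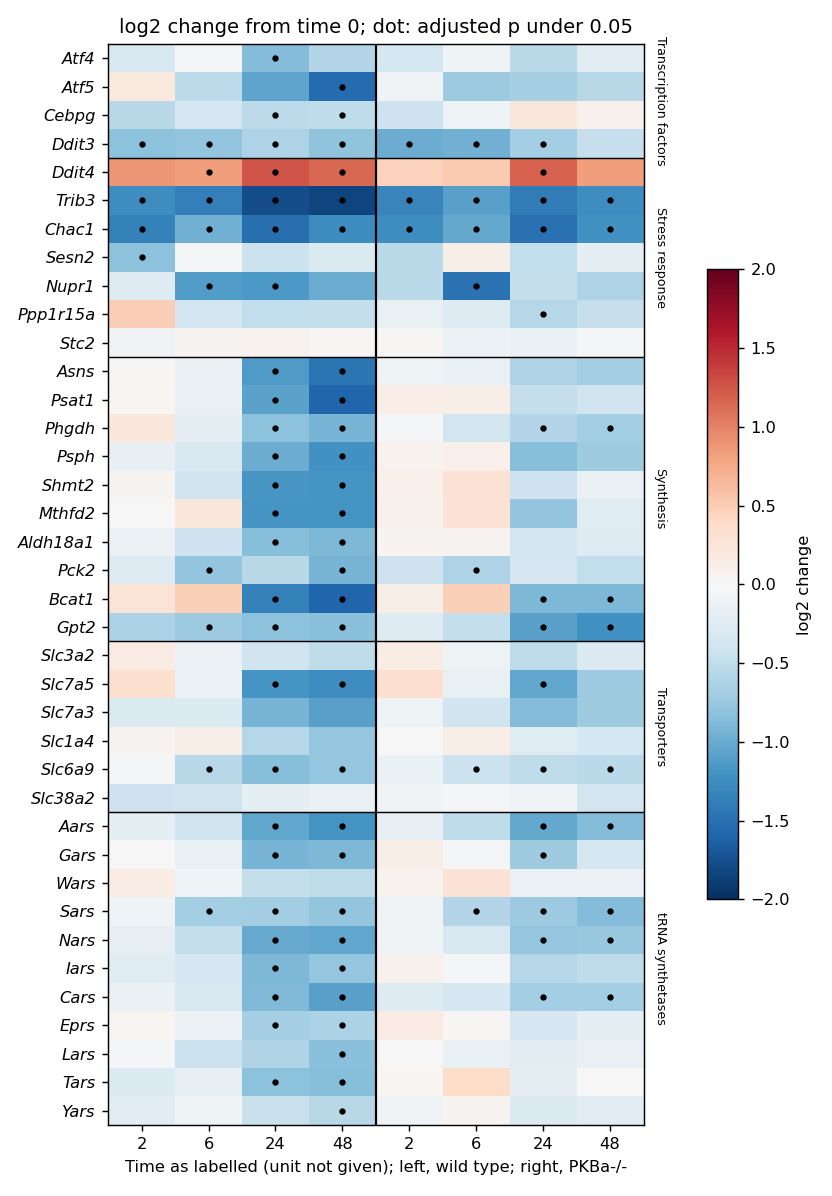
Heat map of the log2 change from time 0 of the 38 tested members (rows, by role) at times 2, 6, 24 and 48 in wild type (left) and PKBa-/- (right), from blue (lower) to red (higher), with a dot where the adjusted p was under 0.05. Trib3 and Chac1 are lower at every later time in both genotypes, Ddit4 is the row that is higher throughout, and most synthesis genes and synthetases are lower at times 24 and 48, more of them with a dot in wild type (27 at time 48) than in PKBa-/- (10).

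The transcription factors moved differently from each other. Atf4 (probe set 1448135_at) was read in wild type at 3224, 3216, 2983 and 2850 at time 0, 2529 and 2395 at time 2, 2756, 2848, 2991 and 3467 at time 6, 1488, 1614, 1847 and 1740 at time 24, 1649, 1460, 2785 and 2518 at time 48. The PKBa-/- arrays read 2866, 2857, 3051 and 3294 at time 0, 2316 and 2367 at time 2, 2961, 2836, 2782 and 2758 at time 6, 2145, 2114, 2037 and 1944 at time 24, 2587, 2630, 2645 and 2412 at time 48. Its signals were near the starting level at time 6 and lay below it at time 24, and in wild type at time 48 replicates 3 and 4 were well above replicates 1 and 2. The wild type change was -0.87 ± 0.19, adjusted p = 0.021 at time 24 and -0.59 ± 0.19, adjusted p = 0.098 at time 48, and the PKBa-/- changes did not pass (-0.54 ± 0.19, adjusted p = 0.13 at time 24). A second, dimmer Atf4 probe set gave -0.99 at time 24 in wild type, and the dimmest, with a mean signal of 51.9, gave 0.097.

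Ddit3, which encodes CHOP, a C/EBP-family factor of prolonged stress, dropped early and stayed low. In wild type its probe set 1417516_at gave 803, 807, 807 and 724 at time 0, 442 and 421 at time 2, 429.6, 415, 423 and 487 at time 6, 522, 506, 473 and 506 at time 24, 405, 422, 518.5 and 413 at time 48. In PKBa-/- it gave 838, 879, 692 and 612 at time 0, 349 and 367 at time 2, 396, 401, 340.1 and 337 at time 6, 551, 479, 413 and 393 at time 24, 609, 585, 500.2 and 465 at time 48. Every array after time 0 lay below every array of time 0 in both genotypes. The change at time 2 was -0.82 ± 0.19, adjusted p = 0.044 in wild type and -1.0 ± 0.19, adjusted p = 0.014 in PKBa-/-, and at time 48 it was -0.80 ± 0.16, adjusted p = 0.011 and -0.46 ± 0.16, adjusted p = 0.11.

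Cebpg, a C/EBP protein that partners ATF4, was the factor that differed between the genotypes. In wild type (probe set 1425262_at) it gave 444, 456, 398.5 and 360 at time 0, 257 and 286.5 at time 2, 333, 336, 326 and 294 at time 6, 254, 309, 288 and 260 at time 24, 274, 267, 315 and 273 at time 48. The PKBa-/- arrays gave 415, 423, 392 and 441 at time 0, 281 and 327 at time 2, 422, 414, 342 and 369.9 at time 6, 548, 499.6, 463 and 477 at time 24, 453, 458, 452 and 416 at time 48. The genotypes overlapped at time 0, and the arrays of time 2 lay below those of time 0 in both. Wild type arrays stayed below time 0 from then on, whereas all 4 PKBa-/- arrays of time 24 lay above it. The wild type changes were -0.53 ± 0.12, adjusted p = 0.02 at time 24 and -0.50 ± 0.12, adjusted p = 0.023 at time 48, and those of PKBa-/- were 0.23 ± 0.12, adjusted p = 0.3 and 0.085 ± 0.12, adjusted p = 0.78. PKBa-/- minus wild type was 0.77 ± 0.12, adjusted p = 0.00052 at time 24 and 0.60 ± 0.12, adjusted p = 0.0027 at time 48, with no overlap of arrays at times 6, 24 and 48. A second probe set of mean signal 226 gave -0.65 in wild type and -0.18 in PKBa-/- at time 24, so that its PKBa-/- value had the opposite sign.

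Atf5, a factor close to ATF4, had its lowest wild type mean at time 48. In wild type its probe set 1425927_a_at gave 2931, 2702, 1389 and 1487 at time 0, 2380 and 2254 at time 2, 1898, 1691, 1052 and 1091 at time 6, 1431, 1290, 696 and 637 at time 24, 784, 833, 609.7 and 502.5 at time 48. PKBa-/- signals were 1906, 1805, 1979 and 1707 at time 0, 1735 and 1798 at time 2, 1168, 1184, 1068 and 1003 at time 6, 1342, 1355, 964 and 986 at time 24, 1344, 1324, 1081 and 1235 at time 48. Wild type replicates 1 and 2 were higher than replicates 3 and 4 at each time that had both. By time 48 the change was -1.54 ± 0.36, adjusted p = 0.024 in wild type, and -0.56 ± 0.36, adjusted p = 0.43 in PKBa-/-.

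Among the stress response genes, Trib3 and Chac1 had the largest falls in wild type and were lower at time 2 in both genotypes. Trib3 encodes a pseudokinase that dampens ATF4. The wild type arrays (probe set 1456225_x_at) gave 726.5, 768.5, 547 and 505 at time 0, 224 and 275 at time 2, 226, 219, 213 and 241 at time 6, 172, 187, 130.5 and 160.1 at time 24, 149, 138, 151 and 177 at time 48. Its PKBa-/- signals were 522, 624, 684 and 678 at time 0, 229.9 and 233 at time 2, 285, 305.5, 233 and 285 at time 6, 248, 239.7, 169.7 and 213 at time 24, 278.5, 272, 213 and 222 at time 48. All later arrays of both genotypes lay below all arrays of time 0. The change was -1.24 ± 0.22, adjusted p = 0.0087 at time 2 and -1.83 ± 0.18, adjusted p = 0.00016 at time 48 in wild type, a 3.56-fold lower value of signal + 32 by then. In PKBa-/- it was -1.32 ± 0.22, adjusted p = 0.0055 and -1.24 ± 0.18, adjusted p = 0.0012.

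Chac1, which encodes an enzyme that breaks down glutathione and is among the most responsive ATF4 targets, followed a like course. Wild type signals (probe set 1451382_at) were 636, 635, 647 and 566 at time 0, 219.8 and 229.7 at time 2, 277, 282, 358 and 304 at time 6, 209.5, 207, 213 and 166 at time 24, 176, 197, 328 and 292 at time 48. For PKBa-/- the signals were 707, 634, 609 and 599 at time 0, 266 and 236 at time 2, 309, 313, 285 and 283 at time 6, 253, 237, 190.1 and 159 at time 24, 289, 286, 218.5 and 239 at time 48. No array of a later time reached an array of time 0 in either genotype. Its change at time 2 was -1.34 ± 0.24, adjusted p = 0.0097 in wild type and -1.24 ± 0.24, adjusted p = 0.016 in PKBa-/-, and at time 24 -1.50 ± 0.20 and -1.49 ± 0.20. The difference between the genotypes in the change to time 48 was 0.046, with a 95% interval of -0.57 to 0.66.

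Nupr1, a small stress-induced chromatin protein, was lower at time 6 in both genotypes. Its wild type signals (probe set 1419665_a_at) were 706.5, 706, 749 and 559.9 at time 0, 531.5 and 587 at time 2, 288, 296, 289 and 300.1 at time 6, 366, 417, 202 and 222 at time 24, 335, 272, 368 and 325 at time 48. In PKBa-/- it gave 443, 546, 355.5 and 462 at time 0, 308 and 287 at time 2, 135, 162, 131 and 135 at time 6, 533, 369, 241 and 199.7 at time 24, 311, 315, 246.5 and 260.1 at time 48. At time 6 all arrays of both genotypes were below those of time 0, and the PKBa-/- arrays were below all wild type arrays. The change to time 6 was -1.12 ± 0.28, adjusted p = 0.022 in wild type and -1.47 ± 0.28, adjusted p = 0.0036 in PKBa-/-. The genotypes differed at that time by -0.91 ± 0.28, adjusted p = 0.041.

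Ppp1r15a encodes GADD34, the phosphatase subunit that reverses eIF2 phosphorylation. Wild type arrays of its probe set 1448325_at gave 857, 843, 632 and 683 at time 0, 1071 and 1066 at time 2, 590.3, 509.5, 552 and 626 at time 6, 493, 426, 578 and 625 at time 24, 519, 488, 603 and 516 at time 48. Those of PKBa-/- gave 664, 671, 694 and 655 at time 0, 609.9 and 592 at time 2, 562, 551, 578 and 537 at time 6, 476, 451.5, 428 and 413.5 at time 24, 494, 474, 509.9 and 432 at time 48. In wild type the arrays of time 2 stood above all others, whereas in PKBa-/- they lay below time 0. The genotypes differed at time 2 by -0.80 ± 0.20, adjusted p = 0.035, the single member that passed at that time (5.82% of all genes passed, 2.97% higher and 2.85% lower). That count rests on few arrays: it was 0 without wild type time 24 replicate 1, and 2 without wild type time 2 replicate 2, wild type time 6 replicate 2 or PKBa-/- time 2 replicate 1. The wild type change to time 2 did not pass (0.50 ± 0.17, adjusted p = 0.17).

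Ddit4, the gene of REDD1, a brake on mTOR, was the member that rose. Its mean signal in wild type was 401 ± 48.9 (SD, n = 4) at time 0 and 1003 ± 94.9 (SD, n = 4) at time 24, a change of 1.26 ± 0.24, adjusted p = 0.0097. In PKBa-/- it was 328 ± 73.8 and 794 ± 218 (SD, n = 4 each), a change of 1.18 ± 0.24, adjusted p = 0.013. Sesn2, which encodes a sensor of leucine, was lower at time 2 in wild type (-0.82 ± 0.18, adjusted p = 0.035) and near its starting level at time 6. Stc2, a secreted glycoprotein gene, changed by at most -0.14 from time 0 in either genotype and did not pass at any time.

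**Figure D2:**
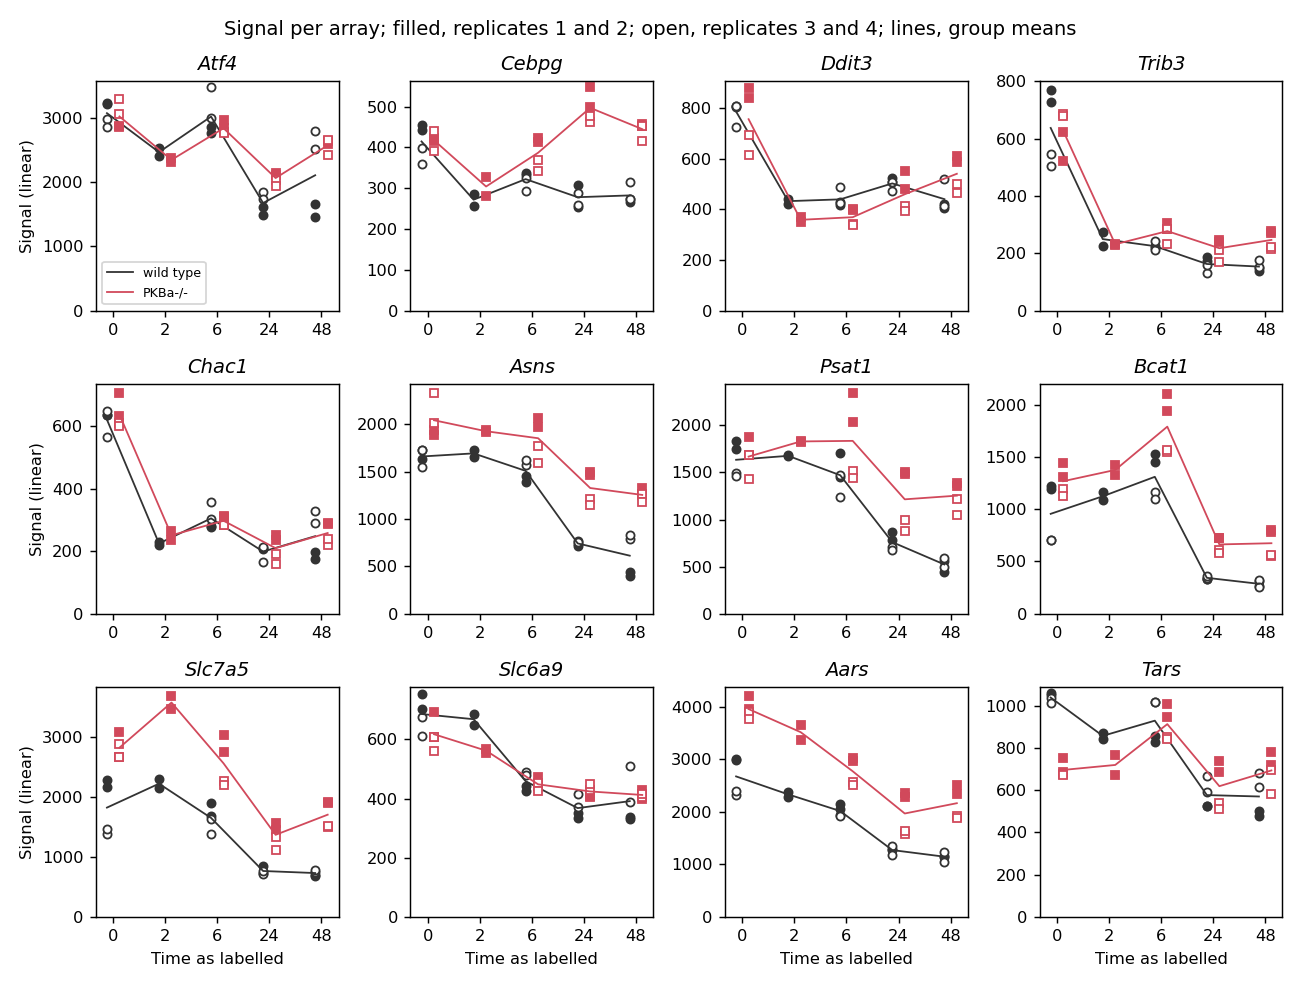
Signal on each array (linear scale) of 12 members against the labelled time for wild type (black circles) and PKBa-/- (red squares), with replicates 1 and 2 filled, replicates 3 and 4 open and lines through group means. Trib3, Chac1 and Ddit3 drop at time 2, whereas Asns, Psat1, Bcat1 and Slc7a5 have lower means at time 24 than at time 6, with PKBa-/- arrays above all wild type arrays at time 48.

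Genes of amino acid synthesis were lower mainly at times 24 and 48. In wild type 9 of 10 tested were lower at time 24 and all 10 at time 48 (3.46% and 3.9% of all genes), with a median change of -1.19 by then. In PKBa-/- 3 of 10 were lower at each of these times (3.35% and 4.36% of all genes), namely Bcat1, Phgdh and Gpt2, and the median at time 48 was -0.59. Pck2, the mitochondrial enzyme that makes phosphoenolpyruvate, and Gpt2, an alanine aminotransferase, were the synthesis genes already lower at time 6 in wild type (-0.79 ± 0.18 and -0.73 ± 0.18).

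Asns makes asparagine from aspartate and glutamine. In wild type (probe set 1451095_at) it gave 1633, 1731, 1729 and 1551 at time 0, 1655 and 1734 at time 2, 1391, 1456, 1568 and 1621 at time 6, 716, 734, 766 and 755 at time 24, 445, 394, 784 and 829 at time 48. The PKBa-/- arrays gave 1892, 1938, 2016 and 2329 at time 0, 1936 and 1919 at time 2, 2072, 1976, 1594 and 1773 at time 6, 1492, 1465, 1211 and 1145 at time 24, 1253, 1326, 1266 and 1175 at time 48. Wild type arrays of times 24 and 48 lay far below the rest, and at time 48 replicates 1 and 2 were lower than replicates 3 and 4, while the PKBa-/- arrays of those times lay between wild type and their own time 0. From time 0 to 48 the change was -1.46 ± 0.22, adjusted p = 0.003 in wild type, a 2.75-fold lower value of signal + 32, and -0.69 ± 0.22, adjusted p = 0.088 in PKBa-/-.

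Psat1 is the transaminase of the serine pathway. The wild type arrays (probe set 1451064_a_at) gave 1832, 1750, 1492 and 1466 at time 0, 1681 and 1673 at time 2, 1706, 1456, 1478 and 1242 at time 6, 868, 785.5, 706 and 682 at time 24, 565, 448, 587 and 492 at time 48. PKBa-/- signals were 1689, 1873, 1429 and 1685 at time 0, 1836 and 1824 at time 2, 2344, 2038, 1515 and 1445 at time 6, 1504, 1481, 881 and 996 at time 24, 1391, 1357, 1051 and 1216 at time 48. The genotypes shared a starting level and by time 48 every PKBa-/- array was above every wild type array. The change at time 48 was -1.59 ± 0.22, adjusted p = 0.0022 in wild type, and -0.41 ± 0.22, adjusted p = 0.33 in PKBa-/-. Phgdh, the first enzyme of that pathway, changed by -0.92 ± 0.14, adjusted p = 0.003 and -0.69 ± 0.14, adjusted p = 0.011. The last enzyme, Psph, changed by -1.21 ± 0.23, adjusted p = 0.01 and -0.71 ± 0.23, adjusted p = 0.089.

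Bcat1, which transfers the amino group of leucine, isoleucine and valine, had its highest means at time 6 and was low thereafter. Wild type signals (probe set 1450871_a_at) were 1193, 1221, 701 and 706 at time 0, 1085 and 1160 at time 2, 1529, 1450, 1160 and 1098 at time 6, 335, 336, 343 and 359 at time 24, 309, 262.5, 320 and 251.5 at time 48. Its PKBa-/- signals were 1440, 1308, 1195 and 1125 at time 0, 1327 and 1424 at time 2, 1939, 2103, 1547 and 1566 at time 6, 728, 726.5, 611.5 and 584 at time 24, 786, 796, 550.3 and 564 at time 48. At times 0 and 6 wild type replicates 1 and 2 were above replicates 3 and 4, whereas at time 24 the 4 wild type arrays lay close together. The change to time 6 did not pass (0.48 ± 0.24, adjusted p = 0.23 in wild type, 0.48 ± 0.24, adjusted p = 0.2 in PKBa-/-). By time 48 the change was -1.59 ± 0.24, adjusted p = 0.003 in wild type and -0.89 ± 0.24, adjusted p = 0.041 in PKBa-/-.

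Gpt2 started higher in PKBa-/- and ended near wild type. Its wild type signals (probe set 1455007_s_at) were 250, 272, 334 and 318 at time 0, 156 and 201 at time 2, 158, 113, 214 and 183 at time 6, 146, 142.5, 179 and 142 at time 24, 149.8, 141, 153 and 152 at time 48. For PKBa-/- the signals were 374, 416, 436 and 465 at time 0, 328 and 369.6 at time 2, 297, 335.5, 252.5 and 293 at time 6, 217, 220.4, 139 and 166 at time 24, 163, 182, 153 and 160.5 at time 48. PKBa-/- arrays lay above all wild type arrays at times 0, 2 and 6, overlapped them at time 24 and lay narrowly above them at time 48. By time 48 the change was -0.84 ± 0.18, adjusted p = 0.016 in wild type and -1.21 ± 0.18, adjusted p = 0.0015 in PKBa-/-, and the difference between them was -0.37 (95% interval -0.92 to 0.18). The mitochondrial folate enzymes Shmt2 and Mthfd2 changed in wild type at time 48 by -1.17 ± 0.27, adjusted p = 0.022 and -1.20 ± 0.26, adjusted p = 0.016, and Aldh18a1, which starts proline synthesis, by -0.90 ± 0.22, adjusted p = 0.031. None of these 3 passed in PKBa-/- at time 24 or 48.

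Of the 6 tested transporters, Slc7a5 and Slc6a9 were lower at times 24 and 48 in wild type (3.46% and 3.9% of all genes). Slc7a5 encodes LAT1, the carrier of large neutral amino acids. In wild type (probe set 1418326_at) it gave 2272, 2162, 1372 and 1463 at time 0, 2142 and 2289 at time 2, 1895, 1670, 1385 and 1629 at time 6, 841, 734, 707 and 766 at time 24, 702, 687, 737.5 and 785 at time 48. In PKBa-/- it gave 3071, 2661, 2870 and 2654 at time 0, 3671 and 3459 at time 2, 3028, 2737, 2260 and 2188 at time 6, 1446, 1568, 1322 and 1119 at time 24, 1892, 1907, 1493 and 1506 at time 48. PKBa-/- arrays were above all wild type arrays at each time, and both genotypes dropped after time 6. From time 0 to 24 the change was -1.19 ± 0.20, adjusted p = 0.0053 in wild type and -1.04 ± 0.20, adjusted p = 0.01 in PKBa-/-. Its partner chain gene Slc3a2 did not pass at any time in either genotype (largest change -0.50 ± 0.18).

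Slc6a9, the glycine transporter GLYT1, fell in both genotypes from time 6 on. The wild type arrays (probe set 1417636_at) gave 755.5, 702, 611 and 676 at time 0, 649.8 and 687 at time 2, 441.5, 425, 489.5 and 479 at time 6, 334.5, 350.2, 371 and 415 at time 24, 330.3, 337, 388 and 511 at time 48. The PKBa-/- arrays gave 694, 607, 608 and 562 at time 0, 555 and 569 at time 2, 473, 441, 452 and 427 at time 6, 406, 409, 430.3 and 451 at time 24, 427.5, 398, 407 and 416 at time 48. No array of times 6, 24 or 48 reached those of time 0 of its genotype. The change at time 48 was -0.78 ± 0.14, adjusted p = 0.0057 in wild type and -0.55 ± 0.14, adjusted p = 0.029 in PKBa-/-.

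Slc7a3 is a carrier of arginine and lysine. Wild type signals (probe set 1417022_at) were 233, 216, 412.5 and 414 at time 0, 232 and 260.2 at time 2, 176.5, 176, 345 and 334 at time 6, 117, 121, 187 and 164 at time 24, 92.5, 89, 176 and 172 at time 48. PKBa-/- signals were 202, 197, 213 and 242 at time 0, 199 and 195 at time 2, 166, 143, 149 and 156 at time 6, 96.8, 93, 119 and 104 at time 24, 118.5, 107, 134 and 110.2 at time 48. Wild type replicates 3 and 4 were above replicates 1 and 2 at every time that had both, an offset that the main fit counts as spread. All wild type arrays of times 24 and 48 lay below those of time 0. The change to time 48 did not pass in that fit (-1.09 ± 0.31, adjusted p = 0.06 in wild type, -0.72 ± 0.31, adjusted p = 0.2 in PKBa-/-). Slc1a4, a carrier of alanine, serine and cysteine, and Slc38a2, the glutamine and alanine carrier SNAT2, did not pass either (-0.78 ± 0.24 and -0.15 ± 0.15 at time 48 in wild type).

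The cytosolic synthetases, which attach amino acids to tRNAs, declined together in wild type. At time 24, 8 of 11 were lower, and at time 48, 10 of 11, where 3.46% and 3.9% of all genes were. At time 48 their median change was -0.84, and Wars, for tryptophan, was the exception (-0.51 ± 0.16, adjusted p = 0.089). In PKBa-/- 5 were lower at time 24 (3.35% of all genes), and at time 48 the 4 that passed were Aars, Cars, Nars and Sars (4.36% of all genes were lower). Sars, for serine, was also lower at time 6 in both genotypes (-0.68 ± 0.18 and -0.59 ± 0.18).

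Aars charges alanine. Its wild type signals (probe set 1451083_s_at) were 2997, 2976, 2314 and 2398 at time 0, 2285 and 2375 at time 2, 2045, 2146, 1942 and 1919 at time 6, 1281, 1270, 1344 and 1183 at time 24, 1139, 1162, 1036 and 1237 at time 48. Its PKBa-/- signals were 4211, 3951, 3892 and 3761 at time 0, 3369 and 3659 at time 2, 2972, 3019, 2572 and 2518 at time 6, 2360, 2282, 1580 and 1642 at time 24, 2342, 2505, 1927 and 1872 at time 48. Every PKBa-/- array was above every wild type array of the same time, and in both genotypes times 6, 24 and 48 lay below time 0. By time 48 the change was -1.19 ± 0.18, adjusted p = 0.0029 in wild type and -0.87 ± 0.18, adjusted p = 0.01 in PKBa-/-.

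Cars charges cysteine. In wild type (probe set 1452394_at) it gave 628, 623, 530.5 and 488 at time 0, 533 and 489 at time 2, 511.5, 513, 397 and 374 at time 6, 306, 289, 317 and 260.5 at time 24, 223, 227, 303 and 252 at time 48. For PKBa-/- the signals were 621, 603, 688 and 646 at time 0, 525 and 532 at time 2, 540.1, 467, 492 and 497 at time 6, 397, 421, 364.5 and 370.2 at time 24, 373, 357, 419 and 411 at time 48. The arrays of the genotypes overlapped up to time 6 and not at times 24 and 48. From time 0 to 48 the change was -1.08 ± 0.15, adjusted p = 0.002 in wild type and -0.67 ± 0.15, adjusted p = 0.016 in PKBa-/-. A dimmer Cars probe set (mean 115) changed by 0.063 and -0.037.

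Nars charges asparagine. The wild type arrays (probe set 1428666_at) gave 2381, 2183, 2033 and 2006 at time 0, 1935 and 1903 at time 2, 1481, 1542, 1574 and 1570 at time 6, 1117, 962, 981 and 1135 at time 24, 911, 773, 1282 and 1244 at time 48. In PKBa-/- it gave 1745, 1758, 1715 and 1792 at time 0, 1591 and 1731 at time 2, 1376, 1619, 1337 and 1299 at time 6, 1151, 1205, 984.5 and 757 at time 24, 956, 1069, 995.5 and 1078 at time 48. Wild type began above PKBa-/- and the genotypes overlapped from time 6 on. The change at time 48 was -1.04 ± 0.18, adjusted p = 0.005 in wild type and -0.76 ± 0.18, adjusted p = 0.021 in PKBa-/-.

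Tars charges threonine. Wild type signals (probe set 1460323_at) were 1058, 1049, 1035 and 1010 at time 0, 841 and 872 at time 2, 827, 855, 1017 and 1015 at time 6, 523.5, 523, 592 and 667 at time 24, 502, 479, 681.5 and 616 at time 48. The PKBa-/- arrays gave 687, 749.6, 674 and 671 at time 0, 671 and 766 at time 2, 947, 1007, 851 and 843 at time 6, 736, 687.5, 539 and 511 at time 24, 718, 779, 580.4 and 695 at time 48. Wild type arrays lay above PKBa-/- arrays at times 0 and 2, and all wild type arrays of time 24 lay below all PKBa-/- arrays of time 0. By time 48 the change was -0.84 ± 0.17, adjusted p = 0.013 in wild type and -0.011 ± 0.17, adjusted p = 0.98 in PKBa-/-.

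**Figure D3:**
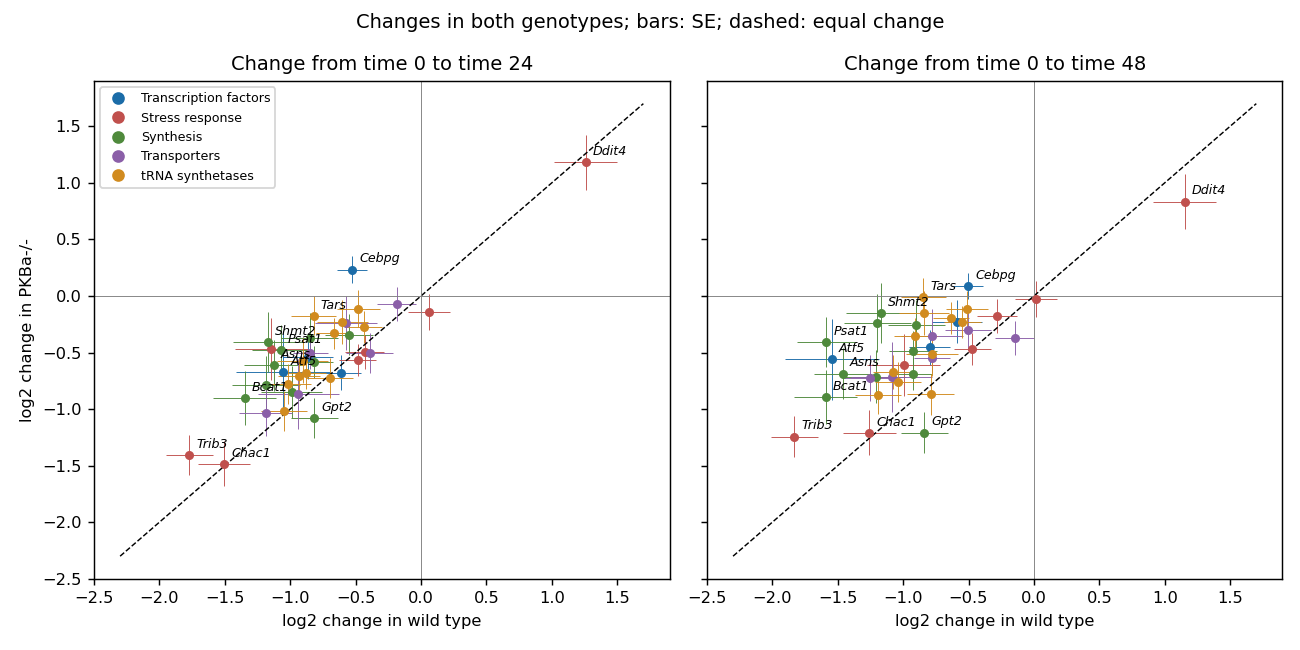
The log2 change from time 0 in PKBa-/- (vertical) against that in wild type (horizontal) at time 24 (left) and time 48 (right) for the 38 tested members, coloured by role, with bars for the SE and a dashed line of equal change. At both times 35 members lie below 0 in both genotypes, and at time 48 33 lie above the dashed line. No single member differed at an adjusted p under 0.05 in the fit of pair averages without a term for the replicate set.

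The next question was whether the genotypes differed at each time. Differences passed most often at time 48. At that time 15 of 38 members (39.5%) were higher in PKBa-/- and none lower, where 23.3% of all genes passed, 12.4% higher. Their median difference was 0.38, against 0.040 over all genes, and in 20 members all PKBa-/- arrays lay above all wild type arrays (22.0% of all genes). At time 24, 8 were higher and 1 lower (20.5% of all genes passed, 9.79% higher), with a median of 0.24.

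The 15 at time 48 spanned the roles. Among the synthesis genes Mthfd2 (1.32 ± 0.26, adjusted p = 0.0029), Psat1 (1.21 ± 0.22, adjusted p = 0.002), Bcat1 (1.14 ± 0.24, adjusted p = 0.0047) and Asns (1.06 ± 0.22, adjusted p = 0.0046) differed most, in folds of signal + 32 by 2.49, 2.32, 2.2 and 2.09. Pck2, Aldh18a1 and Phgdh also passed (0.86, 0.84 and 0.42). Both chains of the LAT1 carrier were higher, Slc7a5 by 1.18 ± 0.20 and Slc3a2 by 0.62 ± 0.18. The synthetases were Aars (0.89 ± 0.18), Gars (0.62 ± 0.16), Cars (0.58 ± 0.15) and Eprs (0.57 ± 0.14), for alanine, glycine, cysteine, and glutamate and proline. Cebpg and Trib3 (0.58 ± 0.18, adjusted p = 0.034) completed them. Phgdh was the closest to the threshold (adjusted p = 0.049).

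**Figure D4:**
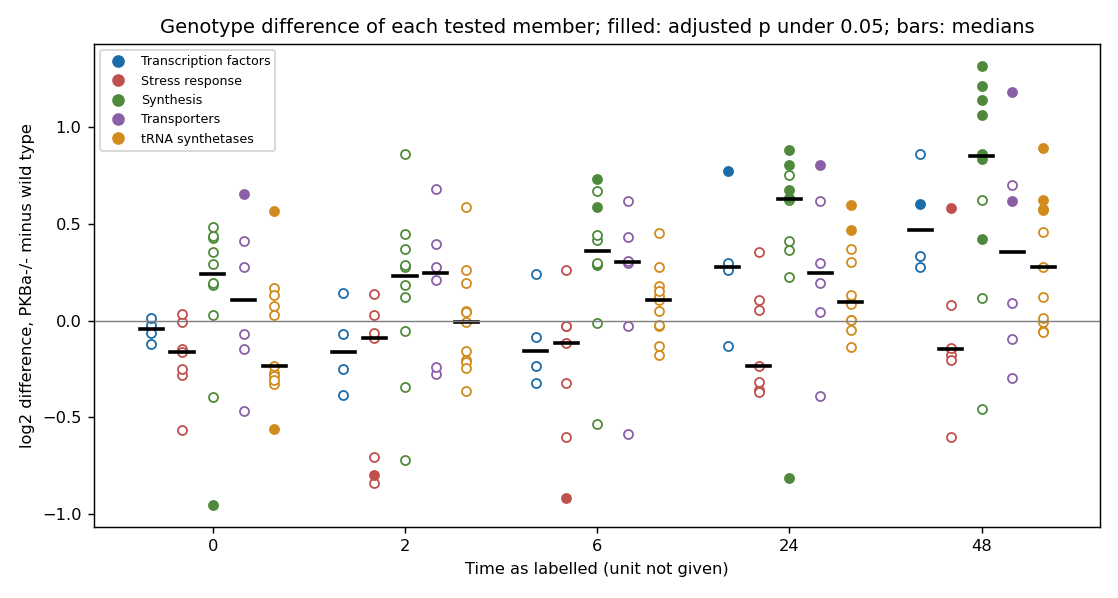
PKBa-/- minus wild type (log2 difference, vertical) of each tested member at each labelled time, by role, filled where the adjusted p was under 0.05, with a bar at each role's median. The synthesis genes move up from a median of 0.24 at time 0 to 0.85 at time 48, where 7 of 10 are filled (12.4% of all genes were higher). The stress response genes have a median below 0 at each time.

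At times 0 and 6 the members' share did not exceed that of all genes. At time 0, 2 were higher and 2 lower, or 10.5%, where 14.9% of all genes passed, 6.48% higher and 8.42% lower. They were Slc7a5 (0.65 ± 0.20, adjusted p = 0.048), Aars (0.57 ± 0.18, adjusted p = 0.048), Tars (-0.56 ± 0.17, adjusted p = 0.048) and Psph (-0.95 ± 0.23, adjusted p = 0.016). The first 3 lie close to the threshold. The count was 1 without PKBa-/- time 0 replicate 1 or wild type time 0 replicate 3. It was 2 without wild type time 6 replicate 2, time 24 replicate 3 or 4 or time 48 replicate 3 or 4, and without PKBa-/- time 0 replicate 3, time 24 replicate 2 or 3 or time 48 replicate 1 or 4. At time 6, Gpt2 (0.73 ± 0.18, adjusted p = 0.015) and Pck2 (0.59 ± 0.18, adjusted p = 0.046) were higher and Nupr1 lower, or 7.89%, where 16.6% of all genes passed, 8.51% higher and 8.07% lower, and 1 passed without PKBa-/- time 6 replicate 1.

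Averaged over the 5 times, 16 members were higher and 5 lower in PKBa-/-, where 47.4% of all genes passed, 26.5% higher and 20.9% lower. The highest was Slc7a5 (0.79 ± 0.10, adjusted p = 3.9e-05), followed by Mthfd2 (0.66 ± 0.13), Bcat1 (0.64 ± 0.12) and Aars (0.62 ± 0.086). Lower were Psph (-0.70 ± 0.11, adjusted p = 0.00032), Ddit4 (-0.51 ± 0.12, adjusted p = 0.0034), Nupr1 (-0.48 ± 0.14, adjusted p = 0.011), Ppp1r15a (-0.27 ± 0.07, adjusted p = 0.0066) and Stc2 (-0.23 ± 0.078, adjusted p = 0.031). Psph thus stood against its pathway neighbours Psat1 (0.46 ± 0.11) and Phgdh (0.19 ± 0.069). The stress response genes held 4 of the 5 lower members and none of the higher ones. Fibroblast markers differed between the genotypes as well. At time 48, 6 of 10 of these markers were higher in PKBa-/- and 1 lower (12.4% and 10.9% of all genes), with a median of 0.73. Their part in the differences between genotypes, and that of Kdr, Lpl and Cd14, was not tested. In whole-culture RNA, fewer cells of a type and less RNA per cell cannot be told apart.

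Whether the genotypes changed by different amounts was tested directly. The F test over the 4 later times passed for 0 of 38 members, where 1.75% of all genes passed. At an unadjusted p under 0.05 there were 3, against 10.7% of all genes. They were Cebpg (adjusted p = 0.11), Psat1 (0.29) and Tars (0.45). The F test passed for 18 members with each array as a replicate and for 4 with a random effect for the pair. Pair averages with a term for the replicate set within genotype gave other members that passed this test. They were Psat1 (adjusted p = 0.0017), Atf5 (0.0025), Shmt2 (0.0032), Cebpg (0.0066), Tars (0.0089), Ddit3 (0.036) and Lars (0.05). Shares of all genes under such other fits are not given here, so their counts cannot be set against a background. At time 48 alone 0 passed (1.14% of all genes) and 10 lay under an unadjusted 0.05, against 11.2% of all genes. The count that passed was 14 with each array as a replicate, 5 with a random effect for the pair and 1, Psat1 (adjusted p = 0.048), with quantile normalization. Members also passed at times 6, 24 and 48 with the term for the replicate set, with counts given in the last section. Point values leaned one way, with 33 of 38 above 0 and a median of 0.39, against 52.7% of genes and 0.017. The lean depended on the replicates: the median was 0.62 in replicates 1 and 2 and 0.16 in replicates 3 and 4, and 26 members were above 0 in both, against 38.3% of all genes. Psat1 had the highest value (1.18, 95% interval 0.50 to 1.87), with 1.40 in replicates 1 and 2 and 0.96 in replicates 3 and 4. Cebpg gave 0.76 at time 24 (95% interval 0.40 to 1.11, adjusted p = 0.068), with 0.92 in replicates 1 and 2 and 0.59 in replicates 3 and 4. At time 24 no member passed (0.726% of all genes) and 2 lay under an unadjusted 0.05, against 7.75% of all genes. There 3 passed with each array as a replicate, 1 with a random effect for the pair, 1 without wild type time 24 replicate 2 or wild type time 0 replicate 4, and 1, Cebpg (adjusted p = 0.041), with quantile normalization. The medians of the replicate pairs were 0.49 and 0.0059. The medians at time 6 were 0.29 and -0.060, and no member passed there or at time 2 (0.551% and 0.242% of all genes). At each of these times 1 lay under an unadjusted 0.05, against 8.41% and 3.24% of all genes. With each array as a replicate, 1 passed at each.

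Neighbouring gene lists were set beside the members. Of 13 tested stress genes linked to ATF4, 5 were lower at time 48 in wild type and none higher (3.9% and 2.15% of all genes), led by Niban1 (-2.10 ± 0.12) and Cth (-1.27 ± 0.21), the cysteine-making enzyme. In PKBa-/- 4 were lower and 2 higher (4.36% and 3.07% of all genes), Vldlr (1.39 ± 0.18), a lipoprotein receptor, and Cebpb (1.38 ± 0.26). The list of other cytosolic synthetases also holds Aimp1, Aimp2 and Eef1e1 of the synthetase complex. Of its 10 tested genes, none passed in the limma test at time 48 in either genotype, where 6.05% and 7.42% of all genes did. At an unadjusted p under 0.05 there were 4 in wild type and 0 in PKBa-/-, against 20.3% and 21.4% of all genes. The medians were -0.30 and -0.070. At time 6 in PKBa-/-, 4 were higher and none lower (8.62% and 9.78% of all genes), with a median of 0.45, whereas none passed in wild type (12% of all genes). At time 24 the 1 that passed in wild type (5.68% of all genes did) was Eef1e1 (-0.78 ± 0.17), a scaffold of the synthetase complex. None of 4 mitochondrial synthetases passed at time 48, where the same shares of all genes apply (1 at an unadjusted p under 0.05 in each genotype, against 20.3% and 21.4%).

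Of 12 other amino acid transporters none passed in wild type at time 24 or 48, where 5.68% and 6.05% of all genes did. At an unadjusted p under 0.05 there were 3 and 1, against 19.3% and 20.3% of all genes. In PKBa-/- at time 48 Slc1a3, a glutamate carrier, was higher (1.67 ± 0.24, 3.07% of all genes). Slc38a4, a carrier of neutral amino acids, was lower there (-0.92 ± 0.15, 4.36% of all genes). These 2 also gave the widest genotype differences at that time (3.44 ± 0.24 and 2.71 ± 0.15), and the glutamine carrier Slc38a1 was lower (-1.16 ± 0.19). Among 15 folate and amino acid genes outside the members, Glul, the glutamine-making enzyme, was higher at time 48 in both genotypes (1.57 ± 0.30 and 1.38 ± 0.30), and Asl, of the urea cycle, lower (-0.56 ± 0.11 and -0.69 ± 0.11). Eif4ebp1, a translation repressor and ATF4 target, was lower at time 48 in both genotypes (-1.04 ± 0.17 and -0.73 ± 0.17). It was the 1 of 15 genes of amino acid sensing and eIF2 control that passed at that time in wild type (6.05% of all genes).

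Genes that answer misfolded protein through ATF6 and XBP1 were also counted. Of 18 tested, 4 were higher at time 6 in wild type, where 4.24% of all genes were, among them Xbp1 (0.64 ± 0.14), Hyou1 (0.54 ± 0.11) and Syvn1 (0.49 ± 0.14), and none lower, with a median of 0.34. In PKBa-/- 3 were higher, where 8.62% of all genes were, led by Manf (0.75 ± 0.24). At time 48 none passed in PKBa-/- (7.42% of all genes), with 1 at an unadjusted p under 0.05 (21.4% of all genes). Pdia6 was lower in wild type (-0.49 ± 0.13, 3.9% of all genes were lower). The medians were -0.11 in wild type and 0.0089 in PKBa-/-.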

How the data were processed

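Biotinylated cRNA from the 36 samples was hybridized to arrays, per the labels' protocols. The deposited table holds 1 linear intensity per probe set and array (22690 probe sets); how the authors summarised and normalized these intensities was not given in the sources used here. Array number limits the precision.

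Genes were read on their brightest single-gene probe set as log2(intensity + 32), and the 40% of genes with the lowest mean were left out. Limma 3.58.1 (R 4.3.3) fitted 10 group means to 18 pair averages (replicates 1 and 2, and 3 and 4) with empirical Bayes moderation (8 residual, 4.23 prior degrees of freedom). Tests were two-sided, adjusted by Benjamini and Hochberg over 7436 genes, threshold 0.05. The spread at time 2 is assumed to be that of the other groups. The 2 probe sets that Phgdh shares with other genes were not used. The procedure was tested on simulated data.

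Members and lists were chosen with earlier results of these data known. Array values are given for the 3 members of each role that changed most from time 0 and the 6 with the smallest F-test p, and at most 3 genes of a list are named. List symbols matched for 152 of 188 genes. Promoters are RefSeq's. Alternatives varied the offset, filter, normalization, probe sets, replicate unit, replicate block and each array.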

Additional observations from a re-analysis of the deposited data

Results flagged for a closer look

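In 8 of 152 groups of 4 arrays, those of the 19 members whose array values are given, 1 array stood apart from the other 3 by Dixon's ratio; chance flags about 1 in 20 groups. Cebpg at time 48 read 315.4 in wild type replicate 3, where the others ran from 267 to 274, and 415.7 in PKBa-/- replicate 4, where the others ran from 452 to 458. Ddit3 read 724 in wild type time 0 replicate 4 (others 803 to 807) and 518.5 in wild type time 48 replicate 3 (others 405 to 422). Chac1 read 565.9 in wild type time 0 replicate 4 (others 635 to 647) and 166 in wild type time 24 replicate 4 (others 207 to 213). Gpt2 read 179.3 in wild type time 24 replicate 3 (others 142 to 146), and Nupr1 read 162.2 in PKBa-/- time 6 replicate 2 (others 131 to 135). These 8 readings do not come from 8 separate arrays. Wild type time 0 replicate 4 stood apart for both Ddit3 and Chac1, and wild type time 48 replicate 3 for both Cebpg and Ddit3.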

How the results depend on the processing

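None of the 155 member values that passed reversed under an alternative that gave a value for it; the direction of members that did not pass was not followed. Each count is of the members, of 38 tested, that passed. With each array as a replicate, the genotype difference passed in 13, 7, 16, 21 and 25 members at times 0, 2, 6, 24 and 48, the wild type change in 9 at time 2 and 19 at time 6, the PKBa-/- change in 6, 18, 29 and 25 at times 2, 6, 24 and 48, and the F test in 18. A random effect for the pair gave 2, 9 and 14 for the genotype difference at times 2, 6 and 24, 11, 23 and 19 for PKBa-/- at times 6, 24 and 48, and 4 for the F test. Replicate numbers were not taken to pair the samples in the main fit. Between genotypes, same-number deviations correlated from -0.215 to 0.439 at times other than 2. Within a genotype all 48 such correlations were above 0 (0.0359 to 0.72). A shift of a replicate set that the times of a genotype share counts as spread in the main fit. With a replicate block for the replicate set within genotype on pair averages, the genotype difference passed in 7, 5, 14 and 15 at times 0, 2, 6 and 24, the wild type change in 21 at time 6, the PKBa-/- change in 5, 15, 27 and 25, and the F test in 7, namely Psat1 (adjusted p = 0.0017), Atf5 (0.0025), Shmt2 (0.0032), Cebpg (0.0066), Tars (0.0089), Ddit3 (0.036) and Lars (0.05); the genotypes then differed in the change to times 6, 24 and 48 in 1, 3 and 8 members. With a replicate block for the number on single arrays, the genotype difference passed in 16, 9, 20, 23 and 25, the wild type change in 12 at time 2 and 21 at time 6, the PKBa-/- change in 7, 20, 33 and 26, the F test in 23 and the difference in the change in 1, 4, 8 and 18. Replicates 1 and 2 alone gave 21, 24, 21, 25 and 29 for the genotype difference, 21 and 32 for wild type at times 2 and 6, 12, 23, 29 and 29 for PKBa-/- and 36 for the F test. Replicates 3 and 4 alone gave 22, 17, 24 and 27 for the genotype difference at times 0, 6, 24 and 48, 19 for wild type at time 6, 19, 33 and 27 for PKBa-/- at times 6, 24 and 48 and 15 for the F test. Fits on single arrays count both arrays of a pair as replicates, and for the other counts here the cause was not tested. The share of all genes that passed under each alternative is not given, so these counts cannot be set against a background. The genotype difference passed in 1 member at time 0 with an offset of 16, in 1 at time 0 and 1 at time 6 with no filter on low values, where more genes are tested, and in 6 at time 6 with quantile normalization. Leaving out 1 array gave 1 to 4, 0 to 2 and 1 to 4 members for the genotype difference at times 0, 2 and 6, 7 to 11 at time 24, 14 to 16 at time 48 and 20 to 22 averaged over times. It gave 3 to 5, 8 to 9, 24 to 27 and 26 to 30 for wild type at times 2, 6, 24 and 48, 3, 6 to 7, 14 to 16 and 9 to 13 for PKBa-/- and 0 for the F test. Of 155 called member values, 18 fell short of the threshold with no filter, 6 with quantile normalization, and 11 of 154 with the mean of all probe sets, Phgdh at time 48 under each of these. Quantile normalization also moved the share of higher genes among all genes that passed, from 35.4% to 47.5% in wild type at time 6, from 35.6% to 46.9% in wild type at time 48 and from 63.6% to 52.1% in PKBa-/- at time 2.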
